A study of Mus musculus with 24 samples.

Results

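Collagens are the main structural proteins of the extracellular matrix, and each is built from chains wound into a triple helix. The genes for these chains in mouse myotubes were followed here under 5 % and 1 % O2, with and without contraction. The family was taken as every protein-coding gene of the normalized count table whose mouse symbol reads Col, a number, a and a number. Of 55487 genes listed, 44 met this rule. Of these, 33 reached a normalized count of 10 in 6 or more of the 24 libraries and were tested among 14541 genes. The tested chains were 10 of 11 fibrillar, 3 of 6 basement membrane and 20 of 27 other chains.

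The RNA came from C2C12 myotubes, a wild-type mouse skeletal muscle cell line that is 1 clone, at day 5 of differentiation. Differentiation took place under 5 % O2, and the myotubes then spent 2 h in 5 % or 1 % O2. They were left unstimulated (5 % CTRL and 1 % CTRL) or were made to contract by repeated bouts of high-frequency electrical stimulation and harvested directly afterwards (5 % STIM and 1 % STIM), with 6 libraries in each of the 4 groups. The design asks what reduced O2 and contraction each do to transcript levels and whether either changes the response to the other. By the authors' methods the 2 h came before stimulation, and medium was changed before and after stimulation. Whether unstimulated myotubes had the same medium changes and total time at their O2 level is not stated. Contraction cannot be told apart from these. The labels do not say that the libraries came from separate cultures, so p-values measure the spread between these libraries. Libraries held 26541858 to 28173745 reads. Replicates differed by more than sampling noise, the smallest chi-square per gene between any pair in a group being 2.56, and sampling alone would give a value near 1. The library of 1 % CTRL replicate 1 stood apart, where the log2 deviation of genes from their mean over libraries had a slope of 0.31 on log10 exon length, against -0.12 to 0.18 in the others. In 5 % CTRL, replicate 1 held the highest value of its group for 23 of the 33 tested chains. Counts without either library are given beside the results.

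Fibrillar chains assemble into the banded fibres that carry tension, with types I and III the most abundant in muscle connective tissue and types V and XI setting how fibrils start and how thick they grow. Type IV chains form the sheet-like network of the basement membrane, which wraps every muscle fibre. The other chains decorate fibrils, form microfilaments or short networks, or cross the cell membrane. Folding of all of them requires hydroxylation of prolines by enzymes that consume O2, and newly made trimers are secreted, trimmed and crosslinked outside the cell.

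The promoter bases of 6 chain genes are shown first, because these genes carry the comparison of O2 levels at rest: the 2 that rose, 3 fibrillar genes with the largest falls of that class, and the most abundant chain of the family. Each run holds the 160 bases before the transcription start, 5′ to 3′ on the strand of the gene, from RefSeq on GRCm38.p6. Capitals mark ACGTG or GCGTG on either strand, which are the core of the hypoxia response element, and TATAAA, the letters of the TATA box, at any position. The RefSeq start of Col27a1 lies inside its GENCODE gene, so its run is upstream of the RefSeq start alone.
Col10a1 (chr10:34389821-34389980, plus strand): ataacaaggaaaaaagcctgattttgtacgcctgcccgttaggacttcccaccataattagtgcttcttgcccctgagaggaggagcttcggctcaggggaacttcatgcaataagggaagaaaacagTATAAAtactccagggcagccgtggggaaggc
Col13a1 (chr10:61979109-61979268, minus strand): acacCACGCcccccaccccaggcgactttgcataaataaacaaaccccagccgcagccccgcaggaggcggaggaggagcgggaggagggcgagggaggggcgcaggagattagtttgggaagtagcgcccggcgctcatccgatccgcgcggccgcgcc
Col27a1 (chr4:63215252-63215411, plus strand): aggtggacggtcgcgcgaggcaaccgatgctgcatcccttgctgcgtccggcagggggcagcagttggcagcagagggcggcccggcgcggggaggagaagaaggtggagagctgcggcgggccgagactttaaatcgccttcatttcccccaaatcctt
Col11a1 (chr3:114030380-114030539, plus strand): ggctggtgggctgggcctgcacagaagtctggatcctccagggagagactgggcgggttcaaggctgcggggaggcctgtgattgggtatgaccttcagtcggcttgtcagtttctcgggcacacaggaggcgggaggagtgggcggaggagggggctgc
Col24a1 (chr3:145292312-145292471, plus strand): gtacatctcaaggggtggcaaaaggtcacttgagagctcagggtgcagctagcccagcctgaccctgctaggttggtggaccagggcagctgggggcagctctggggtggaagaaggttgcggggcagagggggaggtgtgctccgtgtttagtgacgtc
Col3a1 (chr1:45311378-45311537, plus strand): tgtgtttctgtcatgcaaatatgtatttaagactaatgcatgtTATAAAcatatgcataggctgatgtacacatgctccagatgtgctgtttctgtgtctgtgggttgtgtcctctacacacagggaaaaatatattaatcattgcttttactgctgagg

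Among the 250 upstream bases of 32851 promoters, 38.6 % held ACGTG or GCGTG on either strand, compared with 9 of the 29 windows of tested chain genes. ACGTG, which is also the core of the E-box CACGTG, was found in 16.6 % of all promoters and 3 of the 29. GCGTG was in 28.2 % and 7 of the 29. TATAAA was in 12.4 % of all promoters and in 5 of the 29, those of Col3a1, Col10a1, Col11a2, Col13a1 and Col17a1. In Col13a1 it lay further upstream than the bases shown. The GC box GGGCGG was in 32.7 % and 17 of the 29, and CCAAT was in 33.8 % and 11 of the 29. The table of promoters matched 35 of the 44 members and 27 of those tested. These matches describe the letters in the windows.

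Col4a1 and Col4a2, which encode the chains of the common basement membrane network, face away from each other on chromosome 8. Their annotated starts, on opposite strands, lie 21 bases apart, so that the first bases of both genes are the same short stretch. It is shown on the plus strand of GRCm38.p6 because both type IV genes read out from it.
Col4a1 and Col4a2 shared start (chr8:11312805-11312826): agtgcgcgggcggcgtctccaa
The starts of Col4a5 and Col4a6 on chromosome X were 1343 bases apart.

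In resting myotubes at 5 % O2 the family took 2.20 ± 0.118 % of all reads (mean ± SD, n = 6), of which fibrillar chains made up 1.70 ± 0.0907 points, other chains 0.377 ± 0.0232 points and basement membrane chains 0.118 ± 0.00760 points. Per kilobase of the principal transcript, Col3a1, the only chain of type III collagen, had the highest level, 30606 ± 1449.8 normalized counts per kb, and ranked 31st of 12895 protein-coding genes tested. Col1a2, a chain of type I collagen, followed at 12452 ± 733 per kb. Col5a2, which forms type V collagen with Col5a1, lay at 11771 ± 577 per kb, within the spread of Col1a2. Col5a1 reached 10132 ± 755, Col1a1 8041 ± 711 and Col6a1 6273 ± 405 per kb. The first basement membrane chains, Col4a1 at 2570.0 ± 189 and Col4a2 at 2363 ± 171 per kb, ranked below the abundant fibrillar chains, Col6a1 and Col6a2. Col12a1 and Col6a3, at 2294 ± 121 and 2293 ± 255 per kb, did not differ from Col4a2 beyond their spread. The lower part of the order held the minor fibrillar chains, with Col27a1 at 77.7 ± 13.2, Col11a1 at 74.7 ± 7.55, Col11a2 at 48.01 ± 5.53 and Col24a1 at 15.9 ± 2.69 per kb, the first of these not distinct from Col11a1. The lowest tested chain was Col28a1 at 2.68 ± 0.526 per kb.

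**Figure D1:**
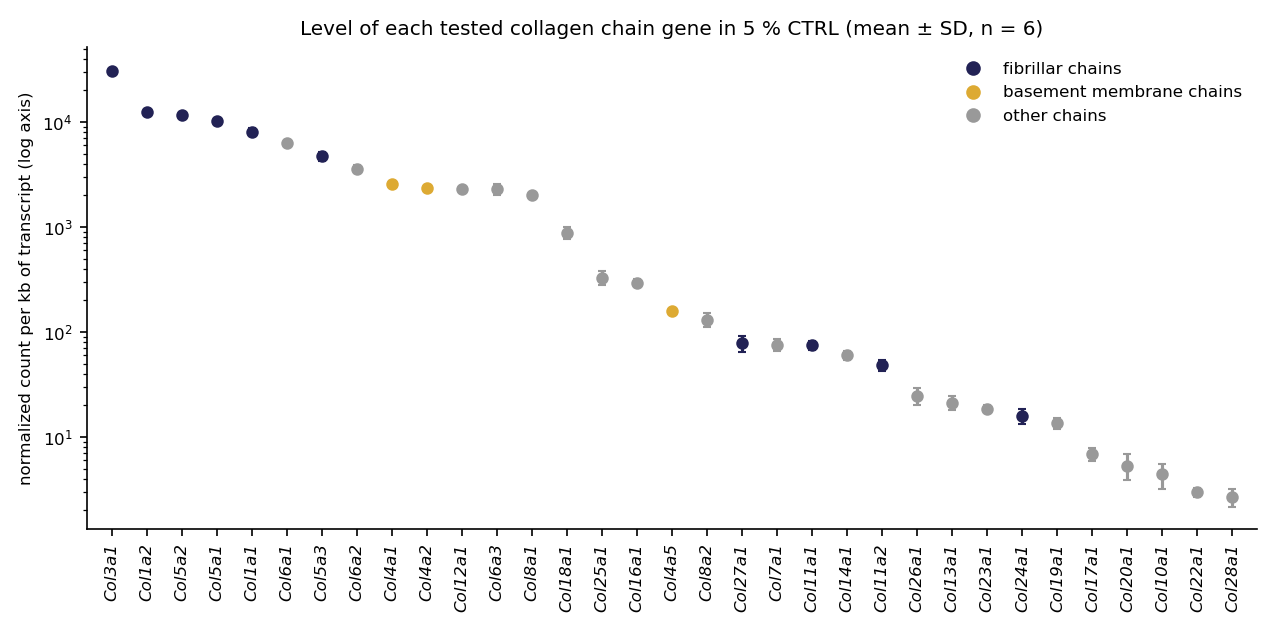
Mean normalized count per kb of principal transcript in the 6 libraries of 5 % CTRL (log axis, bars are the SD) for the 33 tested chain genes, coloured by class. The fibrillar chains Col3a1, Col1a2, Col5a2, Col5a1 and Col1a1 lead the order, and the fibrillar chains Col27a1, Col11a1, Col11a2 and Col24a1 lie in its lower part.

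The 11 members below the limit for testing included the cartilage chains of types II and IX, whereas Col10a1, Col11a1 and Col11a2 were tested. Col2a1, a fibrillar chain of cartilage, reached at most a normalized count of 7.84 in any library. Its fibril-associated partners of type IX, Col9a1, Col9a2 and Col9a3, reached 1.05, 3.02 and 12.5. The restricted type IV chains Col4a3, Col4a4 and Col4a6 reached 7.79, 9.19 and 5.18. The later type VI chains Col6a4, Col6a5 and Col6a6 reached 8.11, 3.85 and 1.94. Col15a1, an endostatin-type chain, reached 20.2 and passed 10 in 3 libraries. Of these, Col9a1 had no reads in 23 of the 24 libraries.

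Reduced O2 lowered most collagen chain transcripts in resting myotubes. Comparing 1 % CTRL with 5 % CTRL, 26 of the 33 tested chains were lower and 2 were higher at an adjusted p-value under 0.05 (limma, Benjamini-Hochberg adjustment over all genes tested), while 59.9 % of all genes tested were called, 30.5 % lower and 29.4 % higher. Col20a1 and Col28a1 reached the limit for testing mostly or only through libraries at 5 % O2, and among the other 31 chains 24 were lower and 2 higher (median log2 fold change -0.29). Over all genes the share called lower rose with the mean normalized count, from 16.1 % under 100 to 43.5 % between 1000 and 10000 and 51.5 % above 10000, where 11 of 12 chains were lower. Below 100, 6 of 9 chains were lower, Col20a1 and Col28a1 included, for which this count is no test. Between 100 and 1000 it was 7 of 9, where 27.6 % of genes were lower, and between 1000 and 10000 it was 2 of 3. The median log2 fold change was -0.30 over the tested chains and 0.0015 over all genes tested. All 6 libraries of 1 % CTRL lay below all 6 of 5 % CTRL for 14 chains, 13 of them among those 31, against a background of 19.9 % of genes, and above them for 1, Col13a1, against 18.2 %. The share of reads taken by the family was 2.20 ± 0.118 % in 5 % CTRL and 1.94 ± 0.0674 % in 1 % CTRL. With every library rescaled to the same total, 19 chains were lower and 2 higher, and the share of calls over all genes that were higher moved from 49.1 % to 62.7 %. Without 1 % CTRL replicate 1 the counts were 25 lower and 2 higher, and without 5 % CTRL replicate 1 they were 22 and 2. In this bulk RNA, fewer cells making a chain and less of its RNA per cell cannot be told apart.

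All 10 tested fibrillar chains were lower in 1 % CTRL, against 30.5 % of all genes tested, with a median log2 fold change of -0.31. Values by group are given below as the lowest, median and highest normalized count of the 6 libraries, and log2 fold changes are on the log2(normalized count + 1) scale with their standard error. Col3a1 (ENSMUSG00000026043, chr1:45311538-45349706, plus strand) stood at 160630.2, 170538 and 183577 in 5 % CTRL, 124193, 129082 and 137101 in 1 % CTRL, 153640.4, 165933 and 167935 in 5 % STIM and 125902, 132703 and 140153 in 1 % STIM. Its counts in 1 % CTRL were 23.9 % below those of 5 % CTRL on average, with no overlap, a log2 fold change of -0.39 ± 0.034 (adjusted p = 4.63e-12). The same separation held between the stimulated groups.

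Col1a1 and Col1a2 encode the chains of type I collagen. Col1a1 had counts of 42096, 48141 and 53387 in 5 % CTRL, 40446, 41977 and 45338 in 1 % CTRL, 39539, 47288 and 51047 in 5 % STIM and 38668, 41820.1 and 44363 in 1 % STIM. Col1a2 had counts of 62604, 65232 and 73718 in 5 % CTRL, 55742, 59724 and 62012 in 1 % CTRL, 60583, 65491 and 67741 in 5 % STIM and 56148, 58598 and 60356 in 1 % STIM. The groups overlapped for Col1a1 and did not for Col1a2. The log2 fold change between resting groups was -0.17 ± 0.062 (adjusted p = 0.0198) for Col1a1. For Col1a2 it was -0.17 ± 0.035 (adjusted p = 5.66e-05). The call for Col1a1 was lost without 5 % CTRL replicate 1 (-0.14, adjusted p = 0.0565) and with rescaled libraries (-0.09, adjusted p = 0.224). The ratio of Col3a1 to Col1a1 per kb was 3.82 ± 0.275 in 5 % CTRL and 3.28 ± 0.188 in 1 % CTRL, with overlap. The ratio of Col1a1 to Col1a2 was 0.645 ± 0.0314 and 0.646 ± 0.0319, well within its spread.

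The type V chains, which join type I collagen in mixed fibrils, shifted by small amounts. Col5a1 had counts of 77064, 85309 and 95929 in 5 % CTRL, 67189.8, 70942 and 73430.4 in 1 % CTRL, 71274, 81124 and 83788 in 5 % STIM and 64717, 67139 and 71631 in 1 % STIM. Its resting groups did not overlap, and the log2 fold change was -0.27 ± 0.043 (adjusted p = 3.02e-06). Col5a2 had counts of 74107, 76949 and 84486 in 5 % CTRL, 67615, 72196 and 78128 in 1 % CTRL, 74383, 77002 and 78647 in 5 % STIM and 68386, 72392 and 78065 in 1 % STIM, with overlapping groups and a log2 fold change of -0.11 ± 0.036 (adjusted p = 0.00917). For Col5a3, a chain of more restricted expression, counts were 25318, 28908 and 33914 in 5 % CTRL, 23614, 25533 and 27512 in 1 % CTRL, 24415, 28223 and 29680.4 in 5 % STIM and 23494, 24503 and 25557 in 1 % STIM, again with overlap and a log2 fold change of -0.18 ± 0.055 (adjusted p = 0.00594). With rescaled libraries the calls for Col5a2 (-0.03, adjusted p = 0.46) and Col5a3 (-0.10, adjusted p = 0.114) were lost. The ratio of Col5a1 to Col5a2 per kb was 0.861 ± 0.0459 in 5 % CTRL and 0.770 ± 0.0285 in 1 % CTRL. The libraries of these groups barely separated, with a lowest value of 0.7963 and a highest of 0.7955. Between 5 % STIM (0.810 ± 0.0637) and 1 % STIM (0.735 ± 0.0434) the ratio overlapped.

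The less abundant fibrillar chains showed larger changes. Col27a1 (ENSMUSG00000045672, chr4:63214004-63334991, plus strand), a fibrillar chain with a slightly shorter triple helix, had counts of 504, 542 and 756 in 5 % CTRL, 232, 276 and 298 in 1 % CTRL, 462, 493 and 567 in 5 % STIM and 168, 259 and 293 in 1 % STIM. In 1 % CTRL its mean count was 53.9 % lower without overlap, a log2 fold change of -1.10 ± 0.12 (adjusted p = 1.17e-08). Col11a1, a chain of type XI collagen, had counts of 541, 549 and 690.0 in 5 % CTRL, 274, 305 and 351 in 1 % CTRL, 496, 604 and 646 in 5 % STIM and 275, 325 and 367 in 1 % STIM. The mean was 45.9 % lower, also without overlap, with a log2 fold change of -0.88 ± 0.072 (adjusted p = 1.28e-12). Col24a1, a relative of Col27a1, had counts of 96.4, 108 and 149 in 5 % CTRL, 42.7, 50.03 and 71.95 in 1 % CTRL, 63.3, 85.9 and 114 in 5 % STIM and 40.2, 64.5 and 77.02 in 1 % STIM. Its resting groups did not overlap either, and the log2 fold change was -1.07 ± 0.16 (adjusted p = 1.31e-06). Col11a2, the partner of Col11a1 in type XI collagen, had counts of 223, 265 and 288 in 5 % CTRL, 171, 206 and 223 in 1 % CTRL, 177, 234 and 255 in 5 % STIM and 167, 202 and 243 in 1 % STIM. Its groups overlapped, and the log2 fold change was -0.35 ± 0.093 (adjusted p = 0.00139). The promoter bases of Col27a1, Col11a1 and Col24a1 shown above hold neither ACGTG nor GCGTG.

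**Figure D2:**
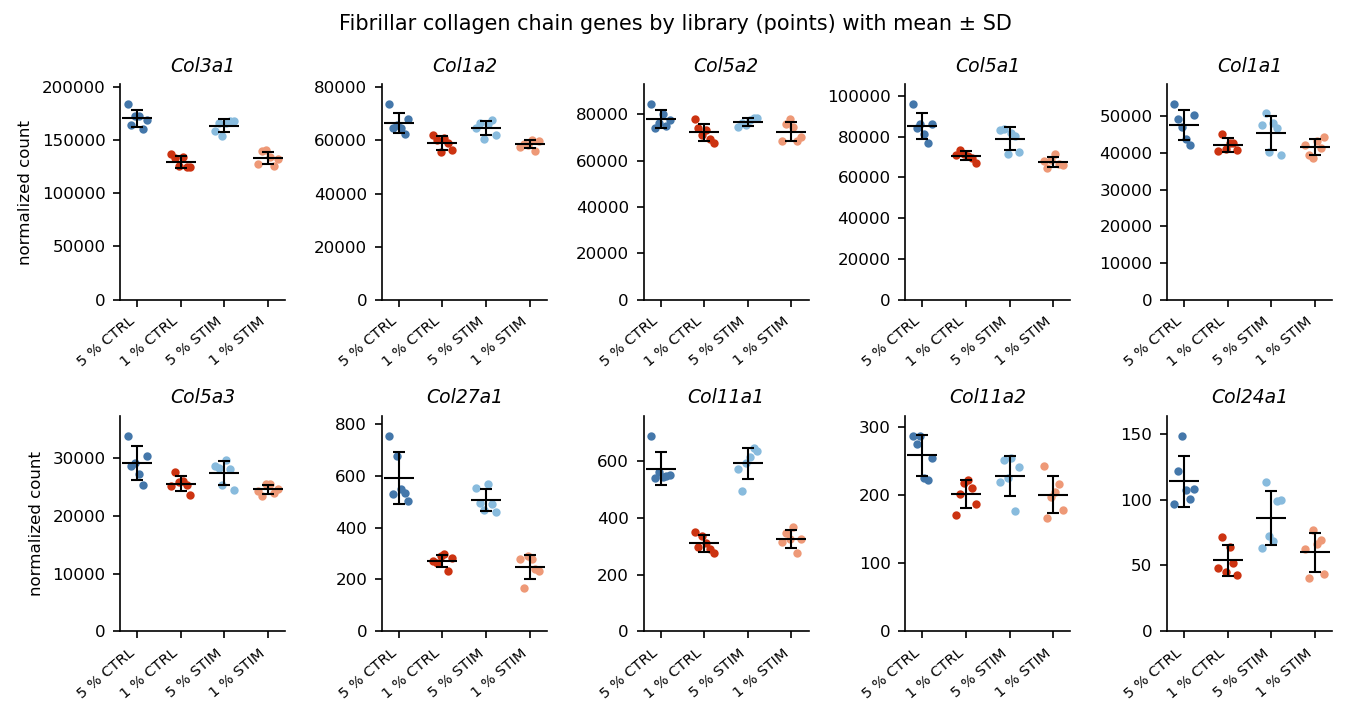
Normalized count (vertical axes, starting at 0) of the 10 tested fibrillar chain genes in each of 24 libraries, by group, with the mean and SD of 6 libraries in black. Col3a1, Col27a1 and Col11a1 separate the 1 % from the 5 % O2 groups with no overlap, whereas the groups overlap for Col1a1, Col5a2 and Col5a3.

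Of the basement membrane chains, the common pair changed little and Col4a5 fell. Col4a1 (ENSMUSG00000031502, chr8:11198423-11312826, minus strand) had counts of 15787, 16691 and 19064 in 5 % CTRL, 14327, 15876 and 16371 in 1 % CTRL, 14919.6, 15645 and 16094 in 5 % STIM and 14551, 15093 and 17410.0 in 1 % STIM. Col4a2 (ENSMUSG00000031503, chr8:11312805-11449287, plus strand) had counts of 13942, 14919.9 and 17089.8 in 5 % CTRL, 13621, 14592 and 15470.4 in 1 % CTRL, 12996, 14138 and 14506 in 5 % STIM and 13375, 14241 and 15748 in 1 % STIM. All groups overlapped for both genes. The resting comparison gave a log2 fold change of -0.12 ± 0.045 (adjusted p = 0.0251) for Col4a1, a call that was lost without 5 % CTRL replicate 1 (-0.08, adjusted p = 0.0857), with rescaled libraries (-0.04, adjusted p = 0.442) and with no filter on low counts (adjusted p = 0.0561). For Col4a2 the value was -0.067 ± 0.046 (adjusted p = 0.22). The ratio of the pair per kb was 1.09 ± 0.0234 in 5 % CTRL and 1.05 ± 0.0380 in 1 % CTRL, with overlap. Col4a5, a chain of the restricted type IV networks, had counts of 983, 1046 and 1092 in 5 % CTRL, 644, 722 and 741 in 1 % CTRL, 980.3, 1029 and 1084 in 5 % STIM and 668, 726 and 806 in 1 % STIM. Its mean count was 32.1 % lower in 1 % CTRL without overlap, a log2 fold change of -0.56 ± 0.046 (adjusted p = 1.13e-12). Its neighbour Col4a6 was not tested.

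Type VI collagen forms beaded microfilaments around muscle fibres, and mutations in its main chains cause muscular dystrophy. Col6a1 had counts of 24428, 25214 and 28839.7 in 5 % CTRL, 18347, 19889 and 21614 in 1 % CTRL, 22766, 25222 and 25715 in 5 % STIM and 19443, 19889 and 21491 in 1 % STIM. Col6a2 had counts of 12947, 13966 and 16388 in 5 % CTRL, 11018, 11659 and 11749 in 1 % CTRL, 12350.2, 14433 and 14580.0 in 5 % STIM and 10951, 11441 and 11833 in 1 % STIM. Neither gene overlapped between resting groups, and the log2 fold changes were -0.37 ± 0.04 for Col6a1 and -0.30 ± 0.044 for Col6a2 (adjusted p = 9.74e-10 and 5.5e-07). The largest chain of the trimer, Col6a3, had counts of 18952, 19657 and 24958 in 5 % CTRL, 15627, 17547 and 19816 in 1 % CTRL, 15661, 16526 and 18468 in 5 % STIM and 14526, 16542 and 17656 in 1 % STIM, with overlap at rest and a log2 fold change of -0.23 ± 0.065 (adjusted p = 0.004).

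Of the fibril-associated chains, which bind to the surface of fibrils, 6 were tested. Apart from Col20a1, whose place among them depended on its counts at 5 % O2, 5 of 5 were lower in 1 % CTRL. Of all genes tested, 30.5 % were lower. Col12a1 had counts of 24902, 26067 and 28721 in 5 % CTRL, 18212, 21391 and 26482 in 1 % CTRL, 23052, 24879 and 26722 in 5 % STIM and 20639.6, 22762 and 24430.2 in 1 % STIM, with overlap and a log2 fold change of -0.29 ± 0.062 (adjusted p = 0.000302). Col14a1 had counts of 297, 348 and 395 in 5 % CTRL, 174, 207 and 230.2 in 1 % CTRL, 275, 333 and 348 in 5 % STIM and 203, 221 and 265 in 1 % STIM. It was lower in every library of 1 % CTRL, with a log2 fold change of -0.75 ± 0.081 (adjusted p = 6.88e-10). Col16a1 had counts of 1315, 1584 and 1659 in 5 % CTRL, 1129, 1297 and 1466 in 1 % CTRL, 1376, 1447 and 1519.9 in 5 % STIM and 1150.1, 1216 and 1342 in 1 % STIM and a log2 fold change of -0.23 ± 0.055 (adjusted p = 0.000561), with overlap. Col19a1 had counts of 45.8, 58.5 and 65.3 in 5 % CTRL, 38.8, 42.6 and 55.6 in 1 % CTRL, 44.98, 48.97 and 55.1 in 5 % STIM and 28.4, 34.5 and 41.4 in 1 % STIM. Its change of -0.34 ± 0.13 (adjusted p = 0.02) was lost with rescaled libraries (-0.26, adjusted p = 0.069). Col22a1, a chain of the myotendinous junction, had counts of 23.2, 26.8 and 28.3 in 5 % CTRL, 15.2, 19.2 and 26.2 in 1 % CTRL, 26.6, 31.6 and 37.8 in 5 % STIM and 15.6, 22.98 and 31.8 in 1 % STIM, with a log2 fold change of -0.39 ± 0.17 (adjusted p = 0.0431) that missed the threshold under 12 of the 14 alternatives. The resting groups overlapped for both of these low genes. Col20a1 (ENSMUSG00000016356, chr2:180986535-181018363, plus strand) had counts of 14.7, 27.6 and 35.6 in 5 % CTRL, 2.86, 5.28 and 6.71 in 1 % CTRL, 16.4, 26.4 and 30.4 in 5 % STIM and 2.86, 5.34 and 7.70 in 1 % STIM. It passed the limit for testing only through the 12 libraries at 5 % O2, so its comparisons of O2 levels are given as values with no test. Its mean count was 81.9 % lower in 1 % CTRL, a log2 fold change of -2.25.

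The short-chain and remaining chains were split. Col8a1, a network-forming chain, had counts of 9905, 10339 and 10624 in 5 % CTRL, 6955, 7354 and 7830.2 in 1 % CTRL, 10012, 10234 and 10537 in 5 % STIM and 7499, 7875 and 8444 in 1 % STIM. Its partner Col8a2 had counts of 492, 549 and 717 in 5 % CTRL, 322, 370.2 and 386 in 1 % CTRL, 563, 623 and 757 in 5 % STIM and 319.6, 389 and 456 in 1 % STIM. Neither overlapped between resting groups, with log2 fold changes of -0.47 ± 0.03 for Col8a1 and -0.63 ± 0.09 for Col8a2 (adjusted p = 1.95e-15 and 1.11e-06). Col7a1, which builds the anchoring fibrils of skin, had counts of 573, 698 and 827 in 5 % CTRL, 438, 476 and 546 in 1 % CTRL, 534, 586 and 623 in 5 % STIM and 367, 467 and 555 in 1 % STIM, no overlap at rest and a log2 fold change of -0.53 ± 0.085 (adjusted p = 6.55e-06). Col26a1 had counts of 48.4, 66.7 and 80.6 in 5 % CTRL, 39.97, 44.8 and 70.1 in 1 % CTRL, 53.2, 70.3 and 81.1 in 5 % STIM and 38.5, 44.3 and 55.8 in 1 % STIM and a log2 fold change of -0.48 ± 0.14 (adjusted p = 0.00391), with overlap. The counts of Col28a1 were 7.16, 11.7 and 13.6 in 5 % CTRL, 2.88, 6.24 and 10.6 in 1 % CTRL, 4.04, 6.13 and 14.3 in 5 % STIM and 3.85, 5.29 and 10.6 in 1 % STIM. It passed 10 in only 8 libraries, 5 of them of 5 % CTRL, so its comparison at rest is given as values with no test. Few reads stood behind its log2 fold change of -0.75. Its call, counted above, was lost under 5 of the 14 alternatives.

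At rest only Col10a1 and Col13a1 passed the test as higher among the 33 tested chains. Col13a1 (ENSMUSG00000058806, chr10:61838236-61979108, minus strand), a transmembrane chain of the neuromuscular junction, had counts of 52.4, 66.3 and 80.6 in 5 % CTRL, 87.5, 105 and 128 in 1 % CTRL, 36.1, 62.1 and 81.7 in 5 % STIM and 70.3, 85.8 and 103 in 1 % STIM. Every library of 1 % CTRL exceeded every library of 5 % CTRL, and the log2 fold change was 0.67 ± 0.14 (adjusted p = 0.000123). Col10a1 (ENSMUSG00000039462, chr10:34389981-34397085, plus strand), a short chain best known from growth plate cartilage, had counts of 9.15, 13.9 and 17.6 in 5 % CTRL, 14.4, 23.6 and 28.8 in 1 % CTRL, 10.1, 20.02 and 23.5 in 5 % STIM and 13.5, 24.9 and 28.9 in 1 % STIM. Its groups overlapped, and the log2 fold change was 0.71 ± 0.22 (adjusted p = 0.00601). Both levels were low. Both promoter windows held TATAAA, as did those of Col3a1 and Col11a2, which fell at rest. Of the other transmembrane chains, Col25a1, which muscle fibres make and motor innervation requires, had counts of 689.7, 899 and 1016 in 5 % CTRL, 675, 757 and 823 in 1 % CTRL, 481, 538 and 598 in 5 % STIM and 337, 414 and 487 in 1 % STIM. Its resting log2 fold change was -0.19 ± 0.10 (adjusted p = 0.114), which passed with a replicate block (adjusted p = 0.0225) and in DESeq2 (adjusted p = 0.0466). Col17a1 of hemidesmosomes (-0.085 ± 0.19, adjusted p = 0.713), Col23a1 (0.0083 ± 0.091, adjusted p = 0.945) and the endostatin-type chain Col18a1 (-0.10 ± 0.066, adjusted p = 0.2) did not pass the test in any of the 5 comparisons in limma as fitted here. Their counts lay between 20.6 and 45.2 for Col17a1, 88.5 and 143 for Col23a1, and 3704 and 5240.4 for Col18a1 over all libraries.

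In stimulated myotubes the comparison of 1 % STIM with 5 % STIM, which shares no library with the resting one, gave 22 chains lower and 1 higher, or 21 and 1 of 31 without Col20a1 and Col28a1, with 57.4 % of all genes called, 28.4 % lower and 29 % higher. The median log2 fold change was -0.23 over the tested chains and -0.00083 over all genes tested. With rescaled libraries the counts were 17 lower and 2 higher, the second being Col4a2 (0.13, adjusted p = 0.0119). The groups did not overlap for 13 of the lower chains, Col20a1 included, against 18.7 % of all genes. In all, 21 chains were lower in both states, which is 80.8 % of those lower at rest and 95.5 % of those lower after stimulation, and 23.1 % of all genes tested were lower in both. Over all genes the shares were 75.8 % and 81.4 %. The 21 include Col20a1, and those lower at rest also include Col28a1. Both reached the limit for testing mostly or only at 5 % O2, and the shares without them were not computed. Across the 33 chains, these 2 included, the log2 fold changes of both states had a Spearman rho of 0.88, against 0.80 over all genes tested. The more negative value was at rest for 25 chains. The value after stimulation minus that at rest was below 0 for 8 of the 33 chains and for 7013 of the 14541 genes tested. Its median was 0.047 over the chains and 0.0072 over all genes tested. Without 5 % CTRL replicate 1 these medians were 0.0099 and 0.0057.

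Fibrillar chains were again lower, 8 of 10, against 28.4 % of all genes tested. The exceptions by the test were Col1a1 (-0.13 ± 0.062, adjusted p = 0.0808) and Col11a2 (-0.18 ± 0.093, adjusted p = 0.0932). Col27a1 changed by -1.04 ± 0.12 (adjusted p = 3.58e-08) and Col11a1 by -0.86 ± 0.072 (adjusted p = 2.8e-12). For Col24a1 the value was -0.52 ± 0.16 (adjusted p = 0.00736). The abundant chains Col3a1 (-0.30 ± 0.034, adjusted p = 3.68e-09), Col5a1 (-0.22 ± 0.043, adjusted p = 5.44e-05) and Col1a2 (-0.14 ± 0.035, adjusted p = 0.000561) fell by less, as did Col5a3 (-0.15 ± 0.055, adjusted p = 0.0187) and Col5a2 (-0.083 ± 0.036, adjusted p = 0.0485). Of these, Col1a2, Col5a2 and Col5a3 lost their calls with rescaled libraries, and Col5a2 lost its call under 6 of the 14 alternatives in all. Col1a1 passed in DESeq2 (-0.13, adjusted p = 0.0364). In the basement membrane class only Col4a5 fell (-0.50 ± 0.046, adjusted p = 1.87e-11), and the values were 0.0059 ± 0.045 (adjusted p = 0.923) for Col4a1 and 0.057 ± 0.046 (adjusted p = 0.301) for Col4a2.

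Among the other chains, 5 of 5 fibril-associated chains other than Col20a1 were lower after stimulation too, against 28.4 % of all genes tested. The values were -0.15 ± 0.062 (adjusted p = 0.0458) for Col12a1, -0.50 ± 0.081 (adjusted p = 2.06e-06) for Col14a1, -0.49 ± 0.13 (adjusted p = 0.00112) for Col19a1, -0.43 ± 0.17 (adjusted p = 0.0247) for Col22a1 and -0.23 ± 0.055 (adjusted p = 0.000657) for Col16a1. The log2 fold change of Col20a1, given with no test, was -2.14. With rescaled libraries Col12a1 (-0.078, adjusted p = 0.266) and Col22a1 (-0.37, adjusted p = 0.0549) lost their calls. Col8a2 changed by -0.74 ± 0.09 (adjusted p = 7.5e-08) and Col8a1 by -0.36 ± 0.03 (adjusted p = 2.68e-12). Col6a1 and Col6a2 fell by 0.30 ± 0.04 and 0.28 ± 0.044 on the log2 scale, whereas Col6a3 gave -0.036 ± 0.065 (adjusted p = 0.662). Col7a1 (-0.33 ± 0.085, adjusted p = 0.0015) and Col26a1 (-0.57 ± 0.14, adjusted p = 0.000975) were also lower. By limma as fitted here, Col25a1 was called lower after stimulation (-0.41 ± 0.10, adjusted p = 0.00125) and not at rest, and the interaction of O2 and stimulation for it was -0.22 ± 0.14 (adjusted p = 0.352). Col13a1 was higher after stimulation as at rest (0.52 ± 0.14, adjusted p = 0.00238). Col10a1 gave 0.30 ± 0.22 (adjusted p = 0.246) after stimulation and Col28a1 -0.14 ± 0.31 (adjusted p = 0.721).

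**Figure D3:**
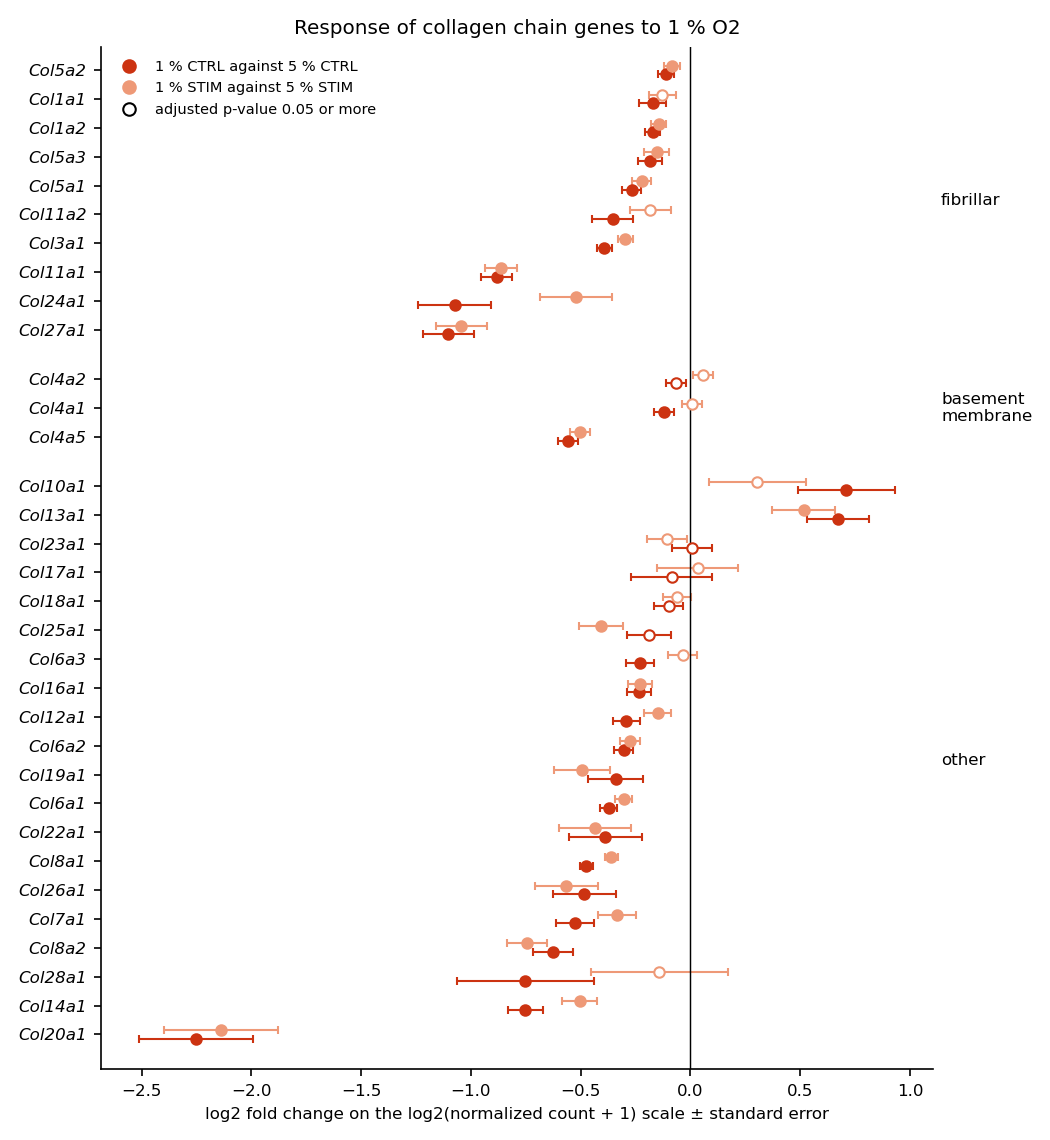
Log2 fold change with its standard error (horizontal axis) of the 33 tested chain genes for 1 % against 5 % O2, at rest (dark red) and after stimulation (light red), by class. Filled points passed an adjusted p-value of 0.05. For Col20a1, and for Col28a1 at rest, this is no test, since they were tested mostly or only through their counts at 5 % O2. All fibrillar points lie left of 0, and Col13a1 and Col10a1 lie to the right.

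Stimulation changed few chains. Each comparison of stimulation uses the CTRL libraries of its O2 level, which the comparison of O2 levels at rest also uses, and the STIM libraries enter the comparison of O2 levels after stimulation. At 5 % O2, 4 of the 33 tested chains were lower in 5 % STIM than in 5 % CTRL and 0 were higher (limma), or 12.1 % of the chains against 12 % lower and 9.44 % higher of all genes tested. An unadjusted p-value under 0.05 in limma was found for 10 of the 33 chains and for 4747 of the 14541 genes tested. The median log2 fold change was -0.074 over the tested chains and -0.0076 over all genes. With rescaled libraries 2 were lower and 1 higher, the higher chain being Col23a1 (0.25, adjusted p = 0.0484). Without 5 % CTRL replicate 1, 2 were lower and Col8a2 was higher (0.26, adjusted p = 0.0251). No fibrillar chain passed the test in either comparison of stimulation, although Col24a1 did at 5 % O2 under 3 of the 14 alternatives. The 6 libraries of 5 % STIM lay below those of 5 % CTRL for 2 chains, against 5.44 % of all genes, and above them for 0, against 5.64 %. Col25a1 (ENSMUSG00000058897, chr3:130131501-130599877, plus strand) changed most among the 4, with a log2 fold change of -0.66 ± 0.10 (adjusted p = 2.69e-05) and no overlap between groups. Col6a3 was lower without overlap (-0.30 ± 0.065, adjusted p = 0.00145), while Col6a1 (-0.043 ± 0.04, adjusted p = 0.492) and Col6a2 (-0.033 ± 0.044, adjusted p = 0.657) of the same trimer did not pass the test. The ratio of Col6a3 to Col6a2 per kb was 0.636 ± 0.0300 in 5 % CTRL and 0.529 ± 0.0324 in 5 % STIM, and these libraries did not overlap. Col7a1 (-0.26 ± 0.085, adjusted p = 0.0305) and Col4a2 (-0.13 ± 0.046, adjusted p = 0.0449) completed the set with overlapping groups. The call for Col7a1 was lost under 4 of the 14 alternatives and that for Col4a2 under 7 of the 14. The fit without 5 % CTRL replicate 1 lost both (-0.21, adjusted p = 0.0826, and -0.10, adjusted p = 0.128). Col4a1, which shares its start with Col4a2, gave -0.12 ± 0.045 (adjusted p = 0.0531) and passed under 5 of the 14 alternatives.

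At 1 % O2, 2 chains were lower and 1 was higher in 1 % STIM than in 1 % CTRL, against 10.8 % and 11.5 % of all genes tested. Col25a1 was again lower, by 0.88 ± 0.10 on the log2 scale (adjusted p = 3.38e-07), and was the only chain called in both comparisons of stimulation, which share no library. Its mean count was 753 ± 51.1 in 1 % CTRL and 411 ± 66.96 in 1 % STIM, with no overlap, which 5.91 % of all genes showed in this direction. Col19a1 gave -0.37 ± 0.13 (adjusted p = 0.0289), a call lost under 5 of the 14 alternatives, the fit without 1 % CTRL replicate 1 (-0.33, adjusted p = 0.069) among them. Col8a1 was higher, 0.11 ± 0.03 (adjusted p = 0.00935), with overlapping groups. The ratio of Col6a3 to Col6a2 per kb was 0.671 ± 0.0416 in 1 % CTRL and 0.624 ± 0.0337 in 1 % STIM, with overlap. Without 1 % CTRL replicate 1 the counts at 1 % O2 were 1 lower and 2 higher, the second being Col14a1 (0.21).

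The interaction, the response to stimulation at 1 % O2 minus that at 5 % O2, passed the test for 0 of 33 chains in limma, against 11.3 % of all genes tested (5.88 % higher and 5.43 % lower), and for 0 in limma voom, DESeq2 and edgeR. In limma, 4 of the 33 chains had an unadjusted p-value under 0.05, as did 3590 of the 14541 genes tested. The 4 chains were Col8a1 (0.11 ± 0.043, adjusted p = 0.0824), Col24a1 (0.55 ± 0.23, adjusted p = 0.132), Col14a1 (0.25 ± 0.11, adjusted p = 0.17) and Col6a3 (0.19 ± 0.091, adjusted p = 0.193). Without 1 % CTRL replicate 1, Col8a1 (0.13, adjusted p = 0.027) and Col12a1 (0.20, adjusted p = 0.0414) passed. With a replicate block Col6a3 passed (0.19, adjusted p = 0.0281).

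**Figure D4:**
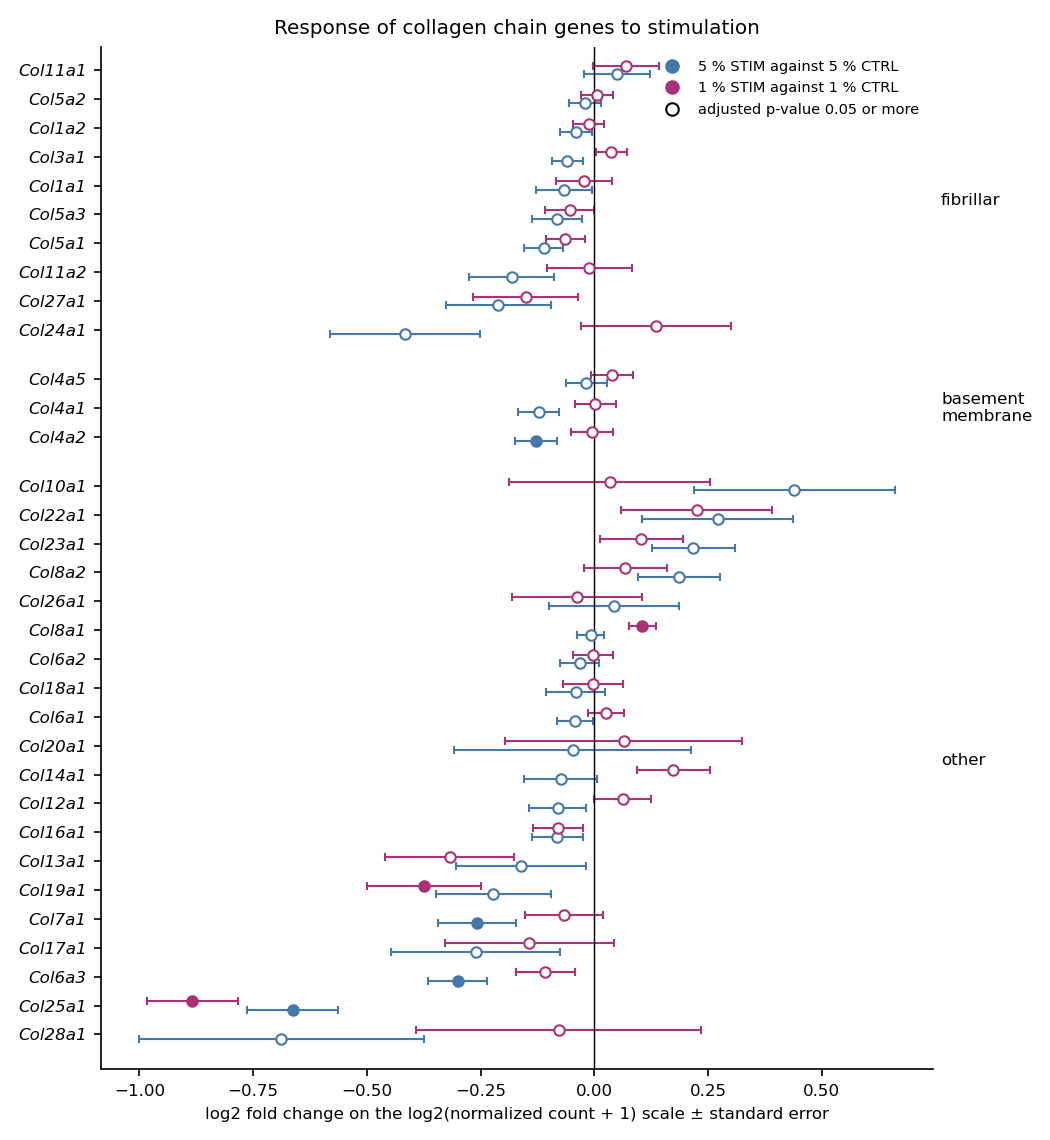
Log2 fold change with its standard error (horizontal axis) of the 33 tested chain genes for stimulation at 5 % O2 (blue) and at 1 % O2 (purple), by class. Filled points passed an adjusted p-value of 0.05, and only Col25a1 has both points filled.

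**Figure D5:**
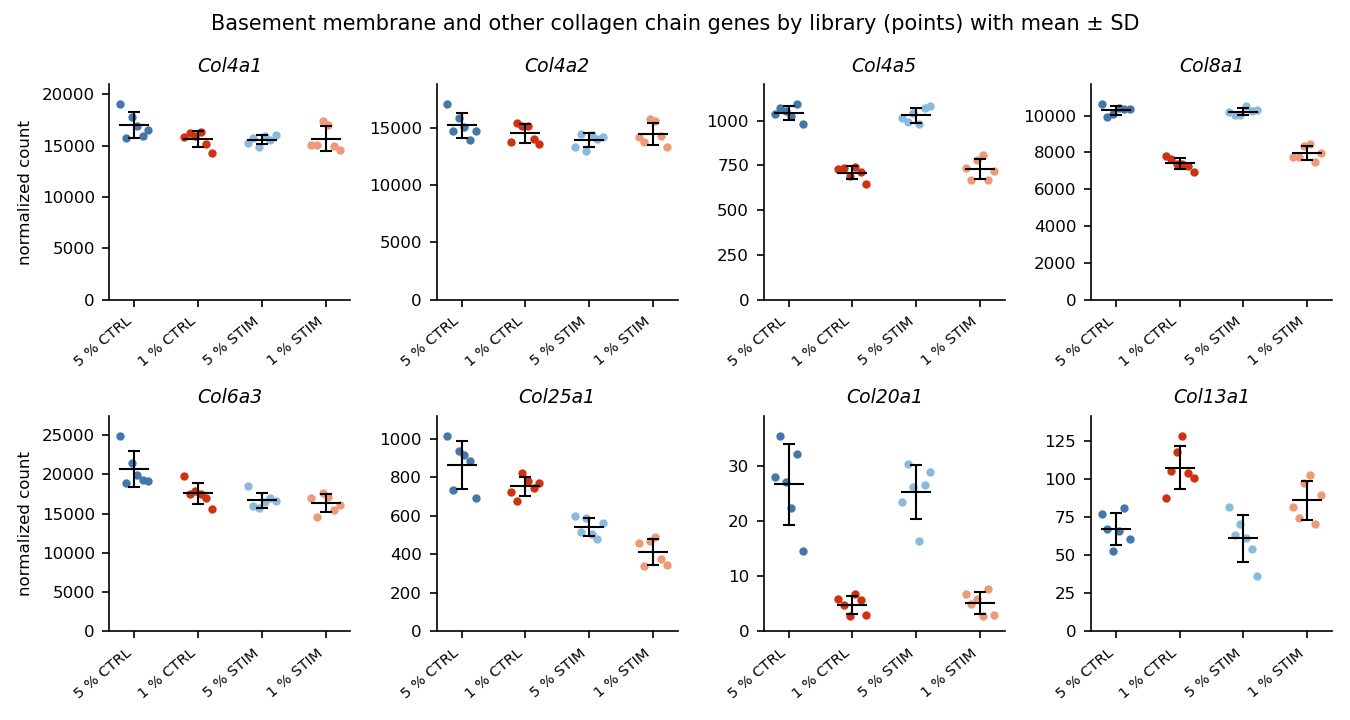
Normalized count (vertical axes, starting at 0) of the 3 tested basement membrane chain genes and 5 other chain genes in each of 24 libraries, by group, with the mean and SD of 6 libraries in black. Col4a5 and Col8a1 are lower at 1 % O2 in both states, Col20a1 lies under 10 in every library at 1 % O2, Col25a1 is lower with stimulation at both O2 levels, and the groups overlap for Col4a1 and Col4a2.

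Genes that act with collagens were read from 5 lists. Among enzymes of collagen assembly, 11 of 29 tested were higher and 5 lower in 1 % CTRL than in 5 % CTRL, with a median log2 fold change of 0.043. P4ha2, a subunit of the prolyl hydroxylase that stabilises the triple helix, rose from 3770.1 ± 116 to 7642 ± 333 normalized counts (mean ± SD, n = 6), a log2 fold change of 1.02 ± 0.036 (adjusted p = 2.17e-22). Plod2, the lysyl hydroxylase that sets crosslinks at the chain ends, rose by 0.90 ± 0.037 (adjusted p = 1.15e-20) on the log2 scale. Adamts3, which trims procollagen ends, had only 8.37 ± 4.70 and 14.03 ± 6.09 counts and gave 0.73 ± 0.30 (adjusted p = 0.0386). P3h2, a prolyl 3-hydroxylase, was lower, -0.73 ± 0.12 (adjusted p = 1.93e-06). With stimulation at 5 % O2, where 12 % of all genes were lower and 9.44 % higher, 3 of the 29 were lower, among them P4ha1 (-0.12 ± 0.03, adjusted p = 0.00248) and Loxl2 (-0.10 ± 0.027, adjusted p = 0.00547), and 0 were higher.

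Of the 19 basement membrane partners, such as laminins and nidogens, 10 were lower and 3 higher in 1 % CTRL (median -0.25). The laminin chains Lama2 (-0.55 ± 0.042, adjusted p = 5.06e-13), Lamc1 (-0.43 ± 0.035, adjusted p = 1.1e-12) and Lamb3 (-0.37 ± 0.031, adjusted p = 2.06e-12) were among those that fell, Lama2 being the laminin chain lost in a congenital muscular dystrophy. At 5 % O2, 3 of the 19 were lower with stimulation, against 12 % of all genes, led by Lamb1 (-0.23 ± 0.029, adjusted p = 2.44e-07) and Nid1 (-0.16 ± 0.032, adjusted p = 0.000275). Of 9 tested collagen receptors, 7 were lower in 1 % CTRL and 0 higher (limma). Itga11, an integrin subunit that binds fibrillar collagen, fell from 1229.6 ± 62.9 to 679.5 ± 49.6, a log2 fold change of -0.86 ± 0.046 (adjusted p = 2.35e-17). Cspg4 (-0.62 ± 0.042, adjusted p = 1.04e-14), the receptor kinase gene Ddr2 (-0.41 ± 0.047, adjusted p = 7.84e-09) and Itga1 (-0.32 ± 0.088, adjusted p = 0.00209) were lower as well. Only Ddr2 passed among receptors at 5 % O2 with stimulation, where it was higher (0.25 ± 0.047, adjusted p = 0.000227).

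Of 15 tested fibril partners, the small proteoglycans and thrombospondins that bind fibrils, 13 were lower and 1 higher in 1 % CTRL (median -0.52). Thbs1, an abundant matricellular protein, fell from 112667 ± 3487 to 63373 ± 2653 counts, a log2 fold change of -0.83 ± 0.031 (adjusted p = 6.93e-22). The leucine-rich proteoglycan genes Aspn (-0.999 ± 0.058, adjusted p = 1.76e-16) and Prelp (-0.74 ± 0.044, adjusted p = 8e-16) fell, and Podn rose from a low level (1.32 ± 0.18, adjusted p = 5.96e-08). Stimulation at 5 % O2 gave -0.16 ± 0.058 (adjusted p = 0.0388) for Aspn and 0.13 ± 0.04 (adjusted p = 0.0169) for Thbs2. Among 9 tested collagen-degrading enzymes and their inhibitors, 3 were lower and 3 higher in 1 % CTRL. Timp3, a matrix-bound inhibitor of metalloproteinases, fell from 96467 ± 5440.4 to 38569 ± 2297, a log2 fold change of -1.32 ± 0.05 (adjusted p = 3.83e-18). Mmp2, a gelatinase, was lower (-0.34 ± 0.027, adjusted p = 5.79e-13), and Mmp16 (0.34 ± 0.089, adjusted p = 0.00132) and Timp2 (0.12 ± 0.029, adjusted p = 0.000441) were higher. Mmp14, a membrane-bound collagenase, was lower with stimulation at 5 % O2 (-0.15 ± 0.031, adjusted p = 0.000349). Each of these counts stands beside the 30.5 % lower and 29.4 % higher of all genes at rest, and the 12 % lower and 9.44 % higher with stimulation at 5 % O2.

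Markers of cell types were read beside these results, with 30.5 % of all genes lower and 29.4 % higher at rest. All 12 myotube markers were tested, and 7 were lower in 1 % CTRL, with summed counts of 556859 to 606668 in 5 % CTRL and 493715 to 553180.2 in 1 % CTRL. Of 10 myoblast or reserve cell markers, 5 were higher and 4 lower, with sums of 7706 to 8254 and 7034 to 8497. Of 8 fibroblast markers, 6 were tested and 4 were lower, with sums of 7939 to 8514 and 7001 to 7578, and Tcf21 and Lum stayed under 10 in every library. Of 8 osteoblast or cartilage markers, 2 were tested and 1, Runx2, was lower, with sums of 2598 to 2836 and 1715 to 1803. Endothelial or blood markers summed to 49.2 to 91.2 and 48.9 to 66.9, and adipocyte markers to 83.7 to 115 and 84.4 to 116, with 1 tested gene in each list and 0 called at rest by limma. The part of these shifts in the collagen results was not tested. With stimulation at 5 % O2, 3 of the 12 myotube markers were lower, 1 fibroblast and 1 adipocyte marker were higher, and 3 of the 10 myoblast markers were higher and 3 lower, against 12 % of all genes lower and 9.44 % higher.

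The size of genes was compared with the change. Across the 33 chains the log2 fold change at rest had a Spearman rho of -0.15 with the genomic span of the gene and -0.15 with transcript length, compared with -0.07 for span over all genes tested, points that share libraries. Exon sequence shared with other genes in words of 75 bases was at most 0.82 % among tested chains, for Col5a1. Counting was not stated to use strand, and the exons of Col5a1 overlapped antisense genes over 2.497 % of their length, the most of any tested chain.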

How the data were processed

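Single-end reads of stranded mRNA libraries were checked by the authors with FastQC 0.11.7, aligned to GRCm38 with STAR 2.5.4b and estimated per gene with RSEM 1.3.0. What the authors deposited is a normalized expression signal, in which DESeq2 size factors have scaled each library's gene counts. A second deposited table holds only the authors' comparisons, namely fold changes, p-values and calls, and was not used.

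All values (100 %, tolerance 0.01) in each library came out as whole multiples of its smallest value, which gave reads per library and allowed count tests as alternatives. Of the 55487 genes, 55227 (99.5 %) matched GENCODE M21, and 14541 reaching a normalized count of 10 in 6 or more libraries were tested. On the scale log2(normalized count + 1), limma 3.58.1 (R 4.3.3; eBayes with trend and robust) fitted the 4 groups together. P-values were adjusted by Benjamini-Hochberg over all genes tested, with a threshold of 0.05. The step was tested on simulated data, in which the spread beyond sampling was set alike for every gene and no trend with exon length was present. That test does not cover libraries such as 1 % CTRL replicate 1.

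Grouping followed the labels. Levels per kb used the principal transcript of GENCODE M21. Promoters came from RefSeq (GRCm38.p6). The members, the classes, the 5 partner lists and the marker lists (myotube, myoblast, fibroblast, osteoblast or cartilage, endothelial or blood, adipocyte) were chosen with earlier results of these data known. Every member is named, with values by group for tested fibrillar and basement membrane chains and for other chains called in at least 1 of 5 comparisons. Of each partner list, up to 4 called genes with the largest change in 1 % CTRL against 5 % CTRL and up to 2 in 5 % STIM against 5 % CTRL are named. A gene among these is not reported here. Alternatives were no filter, a replicate block, a pseudocount of 10, a threshold of 0.01, array weights, libraries rescaled to an equal total, a fit of only the groups compared, edgeR 4.0.16 (quasi-likelihood test), DESeq2 1.42.0, limma voom, the trend with exon length removed with and without the block, and fits without 1 % CTRL replicate 1 or, chosen after seeing the data, without 5 % CTRL replicate 1.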

Additional observations from a re-analysis of the deposited data

Results flagged for a closer look

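Within groups of 6 libraries, 148 sets of values (tested chains, and sums by class) were examined for a library set far from the others by Dixon's criterion, and 7 were marked, 4.73 %, where chance marks about 5 %. In 5 % CTRL, replicate 1 had a normalized count of 690.0 for Col11a1 (541 to 563 in the others), 28840 for Col6a1 (24428 to 25989) and 119846 for the summed other chains (101059 to 106654). Replicate 5 of 1 % CTRL had 70.1 for Col26a1 (39.97 to 47.2). Replicate 3 of 5 % STIM had 22766 for Col6a1 (25169 to 25715). For Col18a1, replicate 1 of 1 % CTRL had 4449 (3752 to 3925) and replicate 6 of 1 % STIM had 4502 (3704 to 3896).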

How the results depend on the processing

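Over the 14 alternatives, 21 of 28 chains called in 1 % CTRL against 5 % CTRL passed the threshold under every one, as did 18 of 23 in 1 % STIM against 5 % STIM, 2 of 4 in 5 % STIM against 5 % CTRL and 2 of 3 in 1 % STIM against 1 % CTRL, and 0 called values changed direction. The O2 counts include Col20a1, and the count at rest also Col28a1, which the limit on counts made differ. At a threshold of 0.01, 2 chains were called in 5 % STIM against 5 % CTRL. For the interaction, leaving out 1 library gave 0 chains without 5 % CTRL replicate 1 and 2 without 1 % CTRL replicate 1. No shared deviation by replicate number was seen: 2 of 36 same-numbered pairs had a correlation of deviations over 0.1 (range -0.15 to 0.15, median 0.0062, against 0.00083 for other pairs), and 5 of 24 libraries correlated best with their own number. These correlations cannot tell whether same-numbered libraries were prepared together. With a replicate block, 1 chain was called for the interaction, Col6a3 (0.19, adjusted p = 0.0281). Rescaling libraries to the same total moved the median log2 fold change of all genes to 0.082 at rest. Chains with counts near 10 rest on about 10 reads per library, and smaller differences in them were not detectable at this depth.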
